A study of Homo sapiens with 72 samples.

Results

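To learn where bryostatin changed the histone mark H3K4me3 in REH cells, 6 Cut&Tag libraries were compared, 3 from untreated cells and 3 from cells treated with 1 nM bryostatin, overnight by the labels and for a full day by the study's methods. REH is an established precursor B acute lymphocytic leukemia line that carries the ETV6-RUNX1 fusion, and all 6 libraries came from this line. The series holds 72 samples of REH, NALM6 and Raji cells, of which 54 libraries of H3K4me2, H3K4me3 and H3K27me3 have peak files, and the 18 others are IgG controls that were not used here. Peaks called in the 6 libraries were merged into 11799 regions wherever they overlapped by at least 1 bp. A region entered the comparison when all 6 libraries had a peak in it, which left 7238 regions. The labels do not state whether replicates were separate cultures, so the p-values measure the spread between these libraries, which may be technical.

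Trimethylation of lysine 4 on histone H3 is laid down at the starts of active genes, where the polymerase begins, and its breadth and height follow how a start is used. Writers of the SET1 and MLL families are drawn to CpG-rich DNA, and demethylases of the KDM5 family remove the mark. H3K4me2 covers the same starts and also enhancers, whereas H3K27me3 marks silenced genes. Bryostatin binds the diacylglycerol site of protein kinase C, a kinase that feeds the ERK and NF-kB pathways in B cells. In Cut&Tag an antibody against the mark guides a transposase, so the reads pile up around the marked nucleosomes.

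The starts of 3 genes whose regions rose and of 2 whose regions fell are printed as examples and do not stand for all changed regions. Each line runs from 250 bases before to 50 bases after the RefSeq start (GRCh38.p14), read 5′ to 3′ along the gene, with CpG dinucleotides in capitals.
KCNJ2: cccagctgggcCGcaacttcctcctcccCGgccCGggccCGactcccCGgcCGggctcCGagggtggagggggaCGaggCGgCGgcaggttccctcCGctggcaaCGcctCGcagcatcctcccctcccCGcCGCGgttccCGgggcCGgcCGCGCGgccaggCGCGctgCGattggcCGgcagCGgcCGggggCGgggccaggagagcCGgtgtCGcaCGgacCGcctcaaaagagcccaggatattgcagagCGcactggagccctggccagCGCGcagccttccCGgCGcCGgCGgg
FOS: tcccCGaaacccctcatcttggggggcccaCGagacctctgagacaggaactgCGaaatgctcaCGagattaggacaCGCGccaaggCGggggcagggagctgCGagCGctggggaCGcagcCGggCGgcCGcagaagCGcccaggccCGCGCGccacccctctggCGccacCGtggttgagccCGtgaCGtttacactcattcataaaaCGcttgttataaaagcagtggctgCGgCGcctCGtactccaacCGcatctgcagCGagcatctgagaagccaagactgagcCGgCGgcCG
CD22: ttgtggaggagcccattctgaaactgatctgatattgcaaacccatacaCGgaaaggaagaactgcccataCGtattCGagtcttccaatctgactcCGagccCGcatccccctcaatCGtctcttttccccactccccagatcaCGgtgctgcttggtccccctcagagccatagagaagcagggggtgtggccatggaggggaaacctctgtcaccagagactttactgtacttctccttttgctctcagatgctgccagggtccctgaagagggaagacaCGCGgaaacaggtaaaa
DNTT: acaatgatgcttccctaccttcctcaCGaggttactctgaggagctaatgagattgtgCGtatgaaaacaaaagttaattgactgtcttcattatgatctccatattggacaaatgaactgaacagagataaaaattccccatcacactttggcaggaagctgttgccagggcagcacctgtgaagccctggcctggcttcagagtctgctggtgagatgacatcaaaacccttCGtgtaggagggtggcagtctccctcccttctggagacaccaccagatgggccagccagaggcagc
IGLL1: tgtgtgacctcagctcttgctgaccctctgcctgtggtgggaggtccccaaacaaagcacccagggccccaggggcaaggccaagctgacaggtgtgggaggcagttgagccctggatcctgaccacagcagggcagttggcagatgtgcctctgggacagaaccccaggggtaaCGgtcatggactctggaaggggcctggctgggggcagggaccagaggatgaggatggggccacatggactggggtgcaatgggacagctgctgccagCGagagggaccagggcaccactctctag

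The printed stretches lie at chr17:70169282-70169581 (KCNJ2), chr14:75278578-75278877 (FOS), chr19:35328937-35329236 (CD22) and chr10:96304184-96304483 (DNTT) on the plus strand and at chr22:23580241-23580540 (IGLL1) on the minus strand, each inside its H3K4me3 region. KCNJ2 held 39 CpG dinucleotides and FOS 30, against 9 in CD22, 3 in DNTT and 2 in IGLL1. The median was 29 over the 10393 RefSeq promoters that lie over a tested region, 30 over the 83 promoters at raised regions and 29.5 over the 66 at lowered regions. Promoters with fewer than 10 CpG made up 10.8% of those at raised regions, 12.1% of those at lowered regions and 5.61% of those over all tested regions. Of the 112 genes that name a changed region, 89 were found in the promoter table.

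The libraries held 7509 to 11809 peaks, and their depth, recovered from the RPKM steps, was 10.2 to 27.9 M mapped reads. The shallowest library was untreated replicate 3 and the deepest untreated replicate 1, and the ranges of untreated and treated libraries overlapped in depth, peak number and called length. An exact permutation test of 3 against 3 libraries cannot go below p = 0.1. The log2 values of libraries of one group correlated across regions with r between 0.961 and 0.991, and those of different groups with r between 0.952 and 0.983. A tested region was found at 10 of 12 precursor B cell markers, among them PAX5 and EBF1, which does not tell REH from another precursor B line. No marker of T cells, myeloid cells, erythroid cells or epithelium had one (0 of 7, 0 of 7, 0 of 4 and 0 of 4).

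Bryostatin raised H3K4me3 at 59 regions and lowered it at 62 in REH. The value of a region is its total signal, which is the RPKM coverage summed over the called bases, on the log2 scale and centred on the library's median region. The comparison used limma with Benjamini-Hochberg adjustment over the 7238 regions at 0.05, so 0.815% of regions were raised and 0.857% lowered, 1.67% in all. The raised regions changed by 0.29 to 1.52 on the log2 scale (1.23-fold to 2.87-fold) and the lowered ones by -0.27 to -0.90 (0.827-fold to 0.536-fold). Their untreated and treated libraries did not overlap at any of the 121 regions, compared with 17.6% of all regions (8.41% higher and 9.15% lower). The calls were made on these same values and favour groups that do not overlap, so this is only a description. At an unadjusted p under 0.05 in limma, 10.5% of all regions differed. Blocking on the replicate number, limma called the same 59 and 62 among 89 raised and 113 lowered regions (2.79% in all). The counts depended on single libraries. They were 35 raised and 35 lowered without untreated replicate 2, 94 and 129 without untreated replicate 3, 27 and 29 without bryostatin replicate 1, 25 and 29 without bryostatin replicate 2, and 24 and 27 without bryostatin replicate 3. Just inside the threshold were IRS2 (0.30, adjusted p = 0.0474) and SMC6 (0.31, adjusted p = 0.0489) among raised and MNT (-0.40, adjusted p = 0.0473) and AKR7A2 (-0.31, adjusted p = 0.0479) among lowered regions in limma. Just outside were RNF24 (0.38, adjusted p = 0.0544), BLACE (-0.47, adjusted p = 0.0562) and LINC00896 (-0.40, adjusted p = 0.0562).

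**Figure D1:**
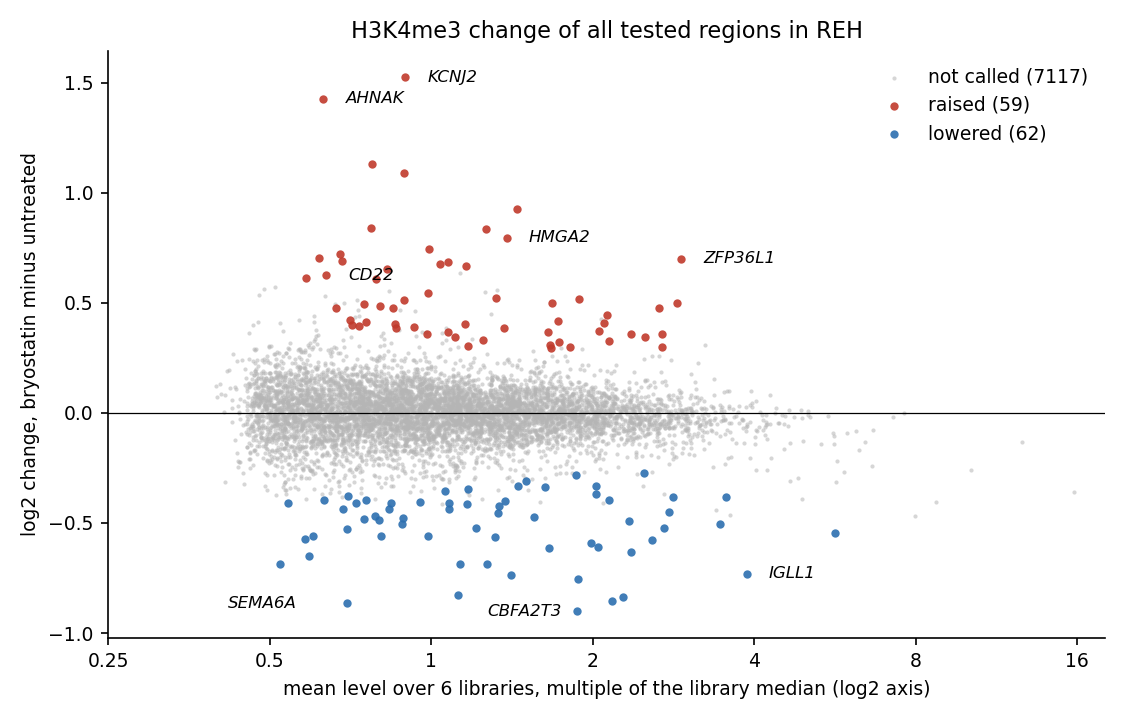
Each point is 1 of the 7238 tested H3K4me3 regions, with its mean level over the 6 libraries (multiple of the library median, log2 axis) against its log2 change with bryostatin; red points are the 59 raised and blue points the 62 lowered regions. KCNJ2 at 1.52 and AHNAK at 1.43 stand above all other regions, and the lowered regions reach -0.90 at CBFA2T3.

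The largest rises were at KCNJ2, AHNAK, HDAC5 and BMP2, each more than doubling in mean total signal. KCNJ2, which codes for an inward rectifier potassium channel, had a region at chr17:70167621-70172450 that overlaps the start of the gene and of its antisense transcript KCNJ2-AS1. Its total signal was 0.665, 0.536 and 0.409 times the median region in untreated replicates 1, 2 and 3, and 1.49, 1.50 and 1.55 times in bryostatin replicates 1, 2 and 3. KCNJ2 was below the median region in every untreated and above it in every treated library, a change of 1.52 ± 0.135 (log2 ± SE, 2.87-fold, limma adjusted p = 0.000183). Both its called length, from a mean of 2747 to 4283 bp, and its mean coverage, from 276 to 496 RPKM, were higher with bryostatin.

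AHNAK, a giant scaffold protein beneath the plasma membrane, had a region at its start at chr11:62544051-62547670. The multiples were 0.426, 0.445 and 0.299 in untreated and 0.892, 1.07 and 1.15 in treated libraries, with no overlap. Here the gain was one of height, as the mean coverage rose from 197 to 460 RPKM while the called length went from 2663 to 3153 bp (log2 change of the total 1.43 ± 0.146, limma adjusted p = 0.000422). HDAC5, a class IIa histone deacetylase that leaves the nucleus when it is phosphorylated, read 0.570, 0.620 and 0.406 untreated and 1.17, 1.24 and 1.04 treated (1.13 ± 0.136, limma adjusted p = 0.00105). Of 7 histone deacetylase genes with a tested region only HDAC5 was called, where 1.67% of all regions were called. BMP2, a secreted ligand of the TGF-beta family, read 0.661, 0.567 and 0.603 untreated and 1.35, 1.27 and 1.26 treated (1.09 ± 0.0786, limma adjusted p = 7.15e-05). The treated values at HDAC5 and BMP2 all lay above the median region and the untreated ones all below it.

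The other raised regions among the 12 largest were FHOD1 (0.93), HVCN1 (0.84), BIRC7 (0.84), HMGA2 (0.80), ANTXR2 (0.74), CLIC5 (0.72), ZFP36L1 (0.70) and SHANK1 (0.69, all log2 changes of the total signal). FHOD1 is a formin that assembles actin, HVCN1 the voltage-gated proton channel of B cells, and BIRC7 an inhibitor of apoptosis. HMGA2 is an architectural chromatin protein of stem and fetal cells, and ANTXR2 is a receptor of collagen and of anthrax toxin. CLIC5 belongs to the chloride intracellular channel family, and SHANK1 is a scaffold of synapses. The FHOD1 region also covers the start of SLC9A5. HMGA2 read 1.16, 1.06 and 0.937 in untreated and 1.77, 1.70 and 2.00 in treated libraries. The call at CLIC5 was lost when any of the 3 treated libraries was left out, and that at SHANK1 without bryostatin replicate 1 or 2 (limma adjusted p up to 0.126 and 0.0580). Genes of actin and the cytoskeleton, picked out after their values were seen, lay on both sides. SSH1 (0.68), CDC42EP3 (0.61), RHOC (0.54), VASP (0.36) and ZYX (0.32) were raised. MYO18A (-0.59) and MYO1C were lowered, beside SEPTIN9, ARHGEF4 and SORBS3. In the adhesion and cytoskeleton list 0 of 17 tested members were called, with a median of 0.05.

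Among early response genes, which are switched on within minutes of a growth signal, 4 of 20 tested members were raised and none lowered, where 0.815% of all regions were raised. The median change of the 20 was 0.01, against -0.00 over all regions, with 10 above and 10 below 0. FOS, which codes for a subunit of the transcription factor AP-1, read 1.00, 0.905 and 0.859 in untreated and 1.44, 1.44 and 1.50 in treated libraries, at chr14:75276851-75281880. All treated values at FOS were above all untreated ones, by 0.67 ± 0.0716 (1.59-fold, limma adjusted p = 0.00057). ZFP36L1, which codes for a protein that destabilizes mRNAs with AU-rich elements, read 2.53, 2.44 and 1.94 untreated and 3.52, 3.80 and 3.84 treated (0.70 ± 0.0923, limma adjusted p = 0.00209). EGR1, a zinc finger factor downstream of ERK, read 1.13, 1.15 and 1.06 untreated and 1.45, 1.31 and 1.43 treated (0.33 ± 0.0677, limma adjusted p = 0.0312). KLF6, another zinc finger factor, read 1.67, 1.54 and 1.44 untreated and 1.83, 1.98 and 1.99 treated (0.32 ± 0.0705, limma adjusted p = 0.0431). The calls at EGR1 and KLF6 were lost when untreated replicate 2 or any treated library was left out (limma adjusted p up to 0.191 and 0.25).

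None of the JUN genes, which code for the partners of FOS in AP-1, passed the test. JUN, JUNB and JUND had log2 changes of -0.07, -0.07 and -0.09, with overlapping groups (limma adjusted p from 0.721 to 0.877). FOSB read 0.702, 0.697 and 0.487 untreated and 0.858, 0.846 and 0.868 treated, and EGR2 read 0.497, 0.474 and 0.394 untreated and 0.656, 0.527 and 0.628 treated. The groups did not overlap at either gene, but neither reached the threshold (log2 changes 0.47 and 0.41, limma adjusted p = 0.105 and 0.141), although FOSB did with the replicate block (limma adjusted p = 0.0496).

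Of 6 tested genes that restrain ERK signalling, 2 were raised, where 0.815% of all regions were, and the median of the list was 0.13 against -0.00 over all regions. SPRY2, the Sprouty inhibitor of receptor signalling, read 2.34, 2.37 and 2.07 untreated and 3.05, 3.10 and 3.27 treated (0.48 ± 0.0696, limma adjusted p = 0.00406), and its call was lost without both libraries of replicate 2 (limma adjusted p = 0.0519). SPRED2, a related inhibitor of RAF activation, read 1.6, 1.58 and 1.31 untreated and 2.01, 1.98 and 1.97 treated (0.42 ± 0.0772, limma adjusted p = 0.0186), and its call was lost without any 1 of the treated libraries (limma adjusted p up to 0.116). The ERK phosphatases DUSP1 and DUSP6 changed by -0.23 and 0.14 (limma adjusted p = 0.279 and 0.491). Among 14 tested protein kinase C and diacylglycerol genes, only DGKD was called, where 1.67% of all regions were called. DGKD, a kinase that converts diacylglycerol to phosphatidic acid, read 1.19, 1.17 and 0.959 untreated and 1.59, 1.53 and 1.63 treated (0.52 ± 0.0831, limma adjusted p = 0.00667). That call was lost without bryostatin replicate 1 or 3 (limma adjusted p up to 0.0643).

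CD22, the inhibitory receptor that CD22 CAR-T cells target, had a raised region at chr19:35328641-35332450. Its multiples were 0.530, 0.539 and 0.473 untreated and 0.786, 0.864 and 0.729 treated, so that CD22 remained below the median region in all 6 libraries (0.62 ± 0.0945, 1.54-fold, limma adjusted p = 0.00479). PTPN6, the phosphatase SHP-1 that CD22 recruits, rose too, from 1.17, 1.26 and 1.16 to 1.56, 1.61 and 1.52 (0.38 ± 0.0632, limma adjusted p = 0.00806), with the call lost without bryostatin replicate 1 or 2 (limma adjusted p up to 0.0746). The call at CD22 held without each library but was lost without centring (limma adjusted p = 0.0521) and without both libraries of replicate 1 or 2 (0.0739 and 0.102). CD79B, a signalling chain of the B cell receptor, fell from 2.89, 3.18 and 3.62 to 2.34, 2.58 and 2.48 (-0.38 ± 0.0829, limma adjusted p = 0.0414), while its partner CD79A, whose region also covers the start of ARHGEF1, changed by 0.10 ± 0.0729 with overlapping groups (limma adjusted p = 0.683). The call at CD79B was lost without untreated replicate 2 or any treated library (limma adjusted p up to 0.216). These 3 were the calls among 13 tested genes of the B cell receptor and B cell surface, whose median was 0.01. Over all regions 1.67% were called.

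**Figure D2:**
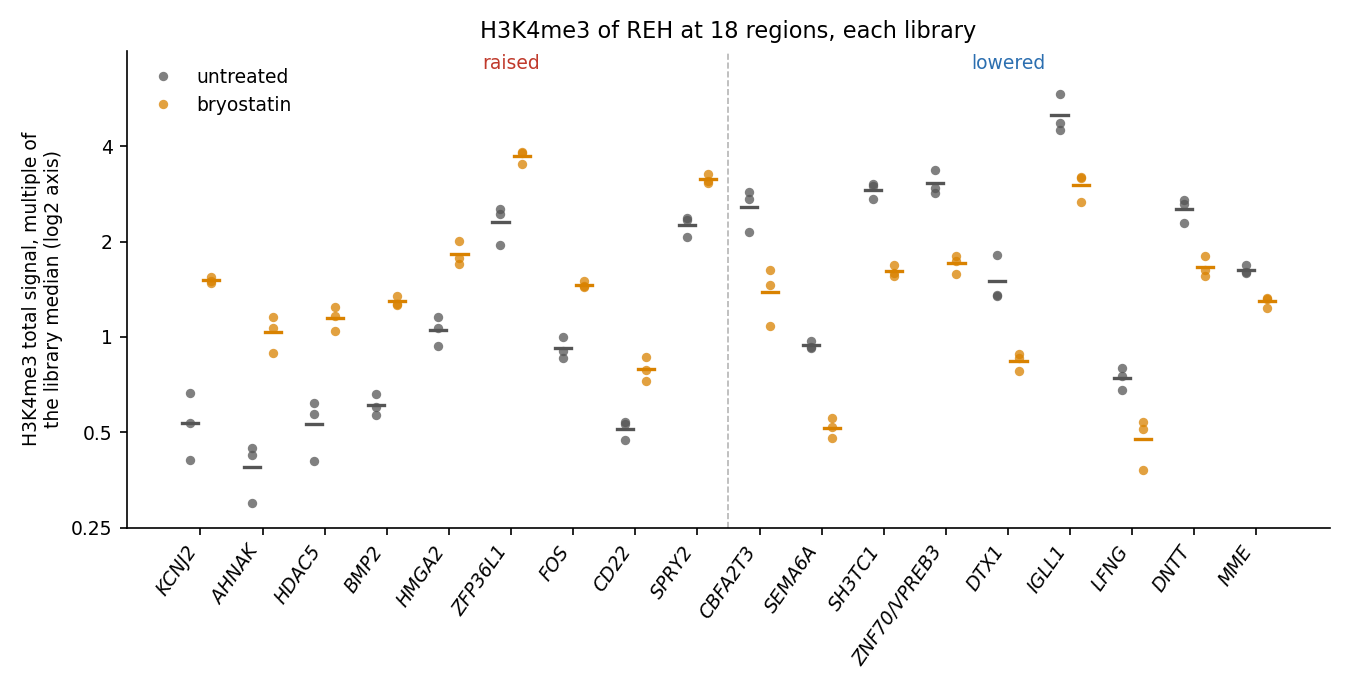
Points are the total H3K4me3 signal of single REH libraries as a multiple of the library's median region (log2 axis) at 18 named regions, grey for untreated and orange for bryostatin, with bars at the mean of 3 libraries. The groups do not overlap at any of these regions, and AHNAK, KCNJ2, HDAC5 and BMP2 cross from below to about or above 1.

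The precursor B list was on the lowered side. Of 11 tested members of that list, 4 were lowered and none raised, where 0.857% of all regions were lowered. All 11 had a change below 0, as 50.4% of all regions did, with a median of -0.17 against -0.00 over all regions. The list was chosen with earlier results of these data known. Of the 10 tested precursor B cell markers, some of them also on this list, CD22 was raised and 4 were lowered. Among these markers 2 had a change above 0 and 8 below 0, with a median of -0.15. DNTT, the terminal transferase that adds nucleotides at V(D)J junctions, had a broad region of 14310 bp at chr10:96295281-96309590. It read 2.63, 2.70 and 2.28 untreated and 1.62, 1.80 and 1.56 treated, without overlap (-0.61 ± 0.0784, 0.655-fold, limma adjusted p = 0.00181). IGLL1, the lambda 5 chain of the surrogate light chain, read 4.51, 4.73 and 5.82 untreated and 2.67, 3.21 and 3.17 treated at chr22:23573511-23584710 (-0.73 ± 0.104, 0.602-fold, limma adjusted p = 0.00313). IGLL1 has close relatives in the lambda locus, so reads there may be shared between copies. VPREB3, which binds nascent immunoglobulin chains in precursor B cells, shares a region with the start of ZNF70, a zinc finger gene. That region read 2.84, 2.95 and 3.36 untreated and 1.74, 1.80 and 1.58 treated (-0.84 ± 0.0772, 0.559-fold, limma adjusted p = 0.000183). MME, the CD10 peptidase of precursor B cells, read 1.6, 1.6 and 1.68 untreated and 1.23, 1.33 and 1.32 treated (-0.33 ± 0.0616, limma adjusted p = 0.0187).

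The other 7 precursor B genes did not pass. RAG1, of the V(D)J recombinase, read 3.97, 3.74 and 4.33 untreated and 3.15, 3.86 and 3.98 treated, and its groups overlapped (-0.14 ± 0.0946, limma adjusted p = 0.671). RAG2 and ARPP21 changed by -0.17 and -0.31 with overlapping groups, and LEF1, SOX4, ERG and FLT3 by -0.12 to -0.01. VPREB1, the partner of IGLL1, had no region called in all 6 libraries and was not tested. The call at MME was lost without untreated replicate 2 or any treated library (limma adjusted p up to 0.105), and the calls at DNTT, IGLL1 and the VPREB3 region held without each library. The call at DNTT was lost without centring and without both libraries of replicate 1 (limma adjusted p = 0.0578 and 0.0554). Among 16 tested B lineage transcription factors none was called, with a median of -0.03, and PAX5 and EBF1 changed by -0.13 and -0.09.

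The largest falls were at CBFA2T3, SEMA6A, SH3TC1, the region of ZNF70 and VPREB3, and DTX1. CBFA2T3, a corepressor of the ETO family that acts in blood progenitors, read 2.72, 2.87 and 2.14 untreated and 1.46, 1.62 and 1.08 treated at chr16:88973641-88979240 (-0.90 ± 0.137, 0.536-fold, limma adjusted p = 0.00497). SEMA6A, a transmembrane semaphorin, read 0.969, 0.922 and 0.932 untreated and 0.555, 0.518 and 0.478 treated (-0.87 ± 0.0842, limma adjusted p = 0.000285). Every treated library at both genes was below every untreated one, and the call at CBFA2T3 was lost without centring and without both libraries of replicate 1 (limma adjusted p = 0.0542 and 0.0829). DTX1, an E3 ligase that modulates NOTCH, read 1.34, 1.36 and 1.82 untreated and 0.884, 0.783 and 0.857 treated (-0.83 ± 0.107, limma adjusted p = 0.00196). LFNG, the Lunatic fringe enzyme that glycosylates NOTCH receptors, read 0.751, 0.798 and 0.679 untreated and 0.541, 0.512 and 0.380 treated (-0.65 ± 0.128, limma adjusted p = 0.025). The call at LFNG was lost without untreated replicate 2 or bryostatin replicate 2 or 3 (limma adjusted p up to 0.107). Both NOTCH genes were picked by the size of their change and belong to no list used here.

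SH3TC1 (-0.85), SEPTIN9 (-0.74), ARHGEF4 (-0.69), GRID2IP (-0.69), SORBS3 (-0.69) and the uncharacterized ENSG00000278869 (-0.75) made up the remainder of the 12 largest falls, beside IGLL1 and the region of ZNF70 and VPREB3. SEPTIN9 is a filament-forming GTPase, ARHGEF4 an exchange factor of RAC1 and CDC42, and SORBS3 the adhesion protein vinexin. The calls at GRID2IP and SORBS3 were lost without bryostatin replicate 1 and that at ARHGEF4 without untreated replicate 2 or bryostatin replicate 2 or 3 (limma adjusted p up to 0.0601, 0.0660 and 0.0603). Of 7 tested RGS, chemokine and homing receptor genes only RGS19, a regulator of G protein signalling, was called, against 1.67% of all regions. It fell from 3.87, 4.27 and 4.0 to 2.85, 3.49 and 3.02 (-0.38 ± 0.0827, limma adjusted p = 0.0414), and its call was lost without untreated replicate 2 or bryostatin replicate 1 or 3 (limma adjusted p up to 0.252) and with the GC correction (0.0693).

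Where 1.67% of all regions were called without the replicate block, no tested member was called in 8 lists. These were the B lineage transcription factors (16 genes), the NF-kB genes and targets (13), the adhesion and cytoskeleton genes (17), the MHC class II genes (3), the ligands of killer cell receptors (12), the cell cycle and MYC genes (18), the writers and erasers of H3K4 methylation (14) and the BCL2 family (11). Their medians lay between -0.07 and 0.05. With the replicate block E2F2, a cell cycle factor, was lowered (-0.41, limma adjusted p = 0.00335, 0.0777 without the block), as was 1 region that covers LTA, LTB and TNF, cytokine genes of the NF-kB list (-0.44, limma adjusted p = 0.0111, 0.0660 without the block). The groups did not overlap at these 2 regions, and the 13 NF-kB genes lie in 11 distinct regions. The MHC class II list rested on 3 of 12 genes, because 9 had no region called in all 6 libraries, and such genes say nothing about a change.

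**Figure D3:**
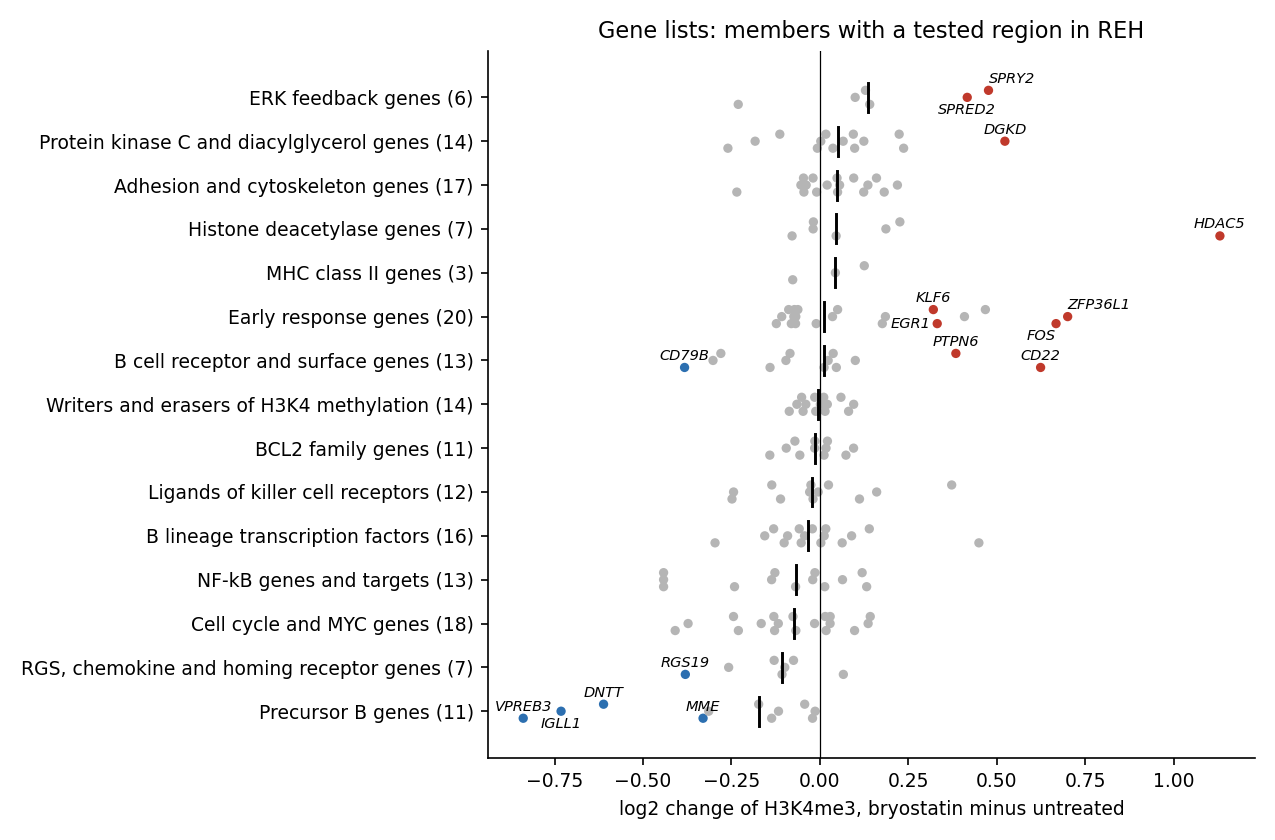
Each point is a list member with a tested H3K4me3 region in REH, at its log2 change with bryostatin, with the number of tested members beside the list name; black bars are medians, red points raised and blue points lowered members. The precursor B list lies wholly below 0 with 4 lowered members, and the early response list has 4 raised members around a median of 0.01.

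Changed regions were wider and richer in GC than all tested regions at the median, which is given as a description. The median width was 3900 bp for raised, 4905 bp for lowered and 2930 bp for all tested regions. Lowered regions had a median of 1.56 times the median region in untreated cells, against 0.921 for raised and 0.997 for all regions. The untreated values also enter the change that made the calls, so part of this contrast can follow from the selection. The GC content of the merged region was 59.0%, 61.0% and 56.0% at the median. When all regions were sorted by GC content into 5 groups of 1447 or 1448, the median change went from 0.03 in the group of lowest to -0.05 in the group of highest GC content, and the latter held 30 of 62 lowered and 19 of 59 raised regions. With the log2 values corrected for GC content by a loess curve per library, chosen after seeing the data, 66 regions were raised and 51 lowered, including all 59 and 47 of the 62. Chromosome 17 held 12 of 62 lowered and 2 of 59 raised regions, against 6.66% of all tested regions.

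Most changed regions lay at gene starts. A start of a protein-coding or lncRNA gene was within 1 kb of 56 raised and 56 lowered regions. The 3 raised and 6 lowered regions without such a start made up 5.08% and 9.68%, compared with 1.4% of all tested regions. The raised region of largest change without a start was at chr10:102811831-102816400 in an exon of WBP1L (0.70, limma adjusted p = 0.00213). The other 2, at chr9:40582611-40585490 and chr21:5018801-5024180 (0.48 and 0.34), lie between genes. Their sequence may have near-identical copies that split the reads, which was not tested. Both calls were lost without single libraries (limma adjusted p up to 0.186 and 0.166). The 3 lowered regions of largest change without a start were in BAHCC1 at chr17:81426091-81432530 (-0.61), between genes at chr2:231678851-231688270 (-0.58) and in CCM2L at chr20:32017881-32020320 (-0.56). The call at chr2 was lost without bryostatin replicate 1 and that in CCM2L without any treated library (limma adjusted p up to 0.0601 and 0.129).

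A total signal is the called length times the mean coverage, and the 2 parts are given as a description. For raised regions the median log2 change was 0.16 in length and 0.33 in mean coverage, and for lowered regions it was -0.13 and -0.35. The length had the sign of the total at 49 of 59 raised and 53 of 62 lowered regions, and the mean coverage at 52 and 58, against 4162 and 4984 of all 7238 regions. The length had an unadjusted p under 0.05 in limma at 17 raised and 7 lowered regions and the mean coverage at 33 and 38. Tested alone with limma, neither the mean coverage nor the length gave a call among the 7238 regions, at 367 and 265 unadjusted p under 0.05. The maximum gave 12 raised and 8 lowered regions, of which 12 and 7 were among the 59 and 62. At unadjusted p under 0.05 the maximum had 45 of the 59 raised and 46 of the 62 lowered regions in the limma fit, and 510 of all 7238.

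At 7 raised regions the mean called length was greater with bryostatin and the mean coverage lower. IFNGR1, a chain of the interferon gamma receptor, had a called length of 2013 bp in untreated and 3603 bp in treated cells, with a mean coverage lower by 0.33 on the log2 scale. EGR1 went from 2820 to 4857 bp while its mean coverage went from 533 to 405 RPKM and its maximum changed by -0.08. KLF6 went from 3580 to 5737 bp (587 to 474 RPKM) and SPRY2 from 4643 to 7020 bp (665 to 626 RPKM). SH2B3, MGME1 and the lncRNA ENSG00000290548 were the other 3. The called lengths of the groups did not overlap at 6 of the 7. They did at ENSG00000290548, with 3690, 2700 and 1070 bp untreated and 3500, 3410 and 3710 bp treated, and MGME1 had 5470, 5580 and 2090 bp untreated, the shallowest library being the short one at both. Conversely, 4 lowered regions had a lower mean length and a higher mean coverage, at ANKRD13D, SLC27A3, N4BP3 and TBC1D24, the first with means of 13717 and 8487 bp, and the called lengths overlapped at all 4. IGLL1 and SEMA6A fell at an almost constant length, with log2 length changes of -0.00 and 0.00 and mean coverage changes of -0.72 and -0.86.

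**Figure D4:**
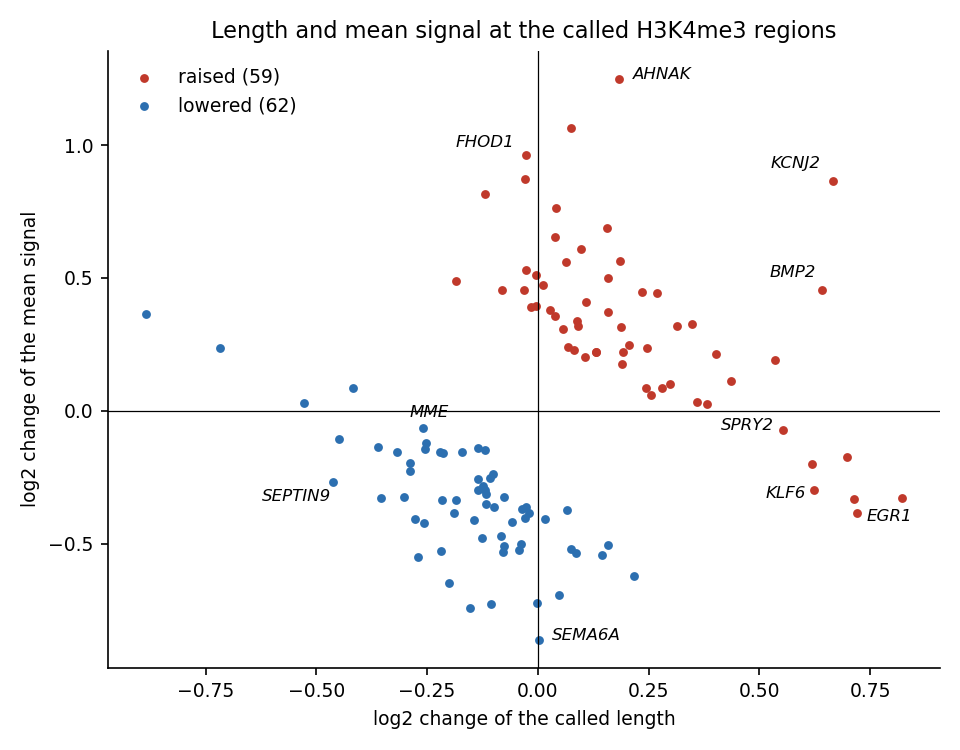
Each point is a changed H3K4me3 region in REH, with the log2 change of its called length against that of its mean coverage, red for the 59 raised and blue for the 62 lowered regions. EGR1, KLF6 and SPRY2 lie at lower right, longer with a lower mean coverage, AHNAK and FHOD1 rise in mean coverage at nearly the same length, and KCNJ2 rises in both.

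H3K4me2, measured in 6 other REH libraries, leaned the same way at the lowered regions. Its log2 change was below 0 at 56 of 62 lowered regions (90.3%), against 61.0% of the 6652 tested H3K4me3 regions that overlap a tested H3K4me2 region, with medians of -0.15 and -0.03. At raised regions it was above 0 at 38 of 59 (64.4%), against 39.0%, with a median of 0.10. Of the 121 regions 2 passed the limma test of H3K4me2 over its own 10791 regions, where 1.45% were called (1.42% higher and 0.0371% lower, with 9.88% at an unadjusted p under 0.05). Over the 6652 H3K4me3 regions with an H3K4me2 region, 4 passed (0.0601%). The H3K4me2 at SLX9 rose by 0.39 ± 0.0885 (limma adjusted p = 0.0491), and that at SPRED2 fell by 0.39 ± 0.0848 (limma adjusted p = 0.0393), opposite to its H3K4me3. With the replicate block 10 of the 121 passed. ZFP36L1 and HMGA2 also had a lower H3K4me2 beside a raised H3K4me3, with -0.38 and -0.33, but did not pass (limma adjusted p = 0.0504 and 0.155).

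H3K27me3, the silencing mark, had a peak in at least 2 untreated and no treated library at 3 of the 59 raised regions, which were FOS (2 untreated libraries), EGR1 (3) and KCNS3 (2). This was the case at 0 of 62 lowered and 7 of all 7238 tested regions (5.08%, 0% and 0.0967%). SPRED2 had such a peak in 3 untreated and 1 treated library. The raised AHNAK, FHOD1 and HMGA2 and the lowered SEMA6A carried peaks of H3K27me3 in all 3 untreated and all 3 treated libraries. A peak in all 3 untreated libraries was found at 13.6% of raised, 6.45% of lowered and 2.31% of all tested regions. The H3K27me3 libraries held 17621 to 48483 peaks untreated and 17141 to 46505 treated, and the part of these unequal numbers in the result was not tested.

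In Raji, a Burkitt lymphoma line treated the same way, 39 of the 59 raised regions overlapped an H3K4me3 region tested there, and 33 of these had a log2 change above 0 (84.6%), compared with 48.3% of 6499 regions. For lowered regions it was 10 of 31 (32.3%). No overlapping region called in all 6 Raji libraries was found for 33.9% of raised, 50% of lowered and 10.2% of all tested regions. KCNJ2, AHNAK, HDAC5, BMP2, CBFA2T3, DNTT and IGLL1 were among them. Peaks in fewer Raji libraries were not counted, so this does not show that Raji lacks the mark there. The limma test in Raji called 0.155% of 9040 regions, all of them higher with bryostatin (5.65% had an unadjusted p under 0.05), and passed FOS (1.51, adjusted p = 0.0288) and PTPN6 (0.79, adjusted p = 0.0452). CD22 had 0.48 in Raji and passed with the replicate block only (limma adjusted p = 0.0169, 0.476 without it). With the block 8 raised and 4 lowered regions passed in Raji, in place of 2 and 0, among them EGR1 (0.78, limma adjusted p = 0.00593), ZFP36L1 (0.44, 0.0112) and the region of ZNF70 and VPREB3 (-0.59, 0.00508), and 59 of the 6499 did.

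The difference in response between REH and Raji was tested with an interaction term over 12 libraries and 6447 regions, of which 5 passed (0.0776%). ECE1 and RUBCNL were also called in REH, and 3 were not. ECE1, the endothelin converting enzyme, changed by -0.53 in REH and 0.20 in Raji, and RUBCNL, an autophagy regulator, by 0.65 in REH and -0.01 in Raji (limma adjusted p = 0.0448 for both). FOS, at 0.66 in REH and 1.52 in Raji in that fit, did not pass (limma adjusted p = 0.454), nor did CD22 (0.62 and 0.49, difference 0.14 ± 0.169, limma adjusted p = 0.998). In NALM6, a precursor B line whose replicate 1 carries another scaling, 16 of 22 raised and 9 of 28 lowered regions had a change above 0, against 50% of 3717 regions, and the limma test called 0% of its 3838 regions, with 7 (0.182%) at an unadjusted p under 0.05.

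**Figure D5:**
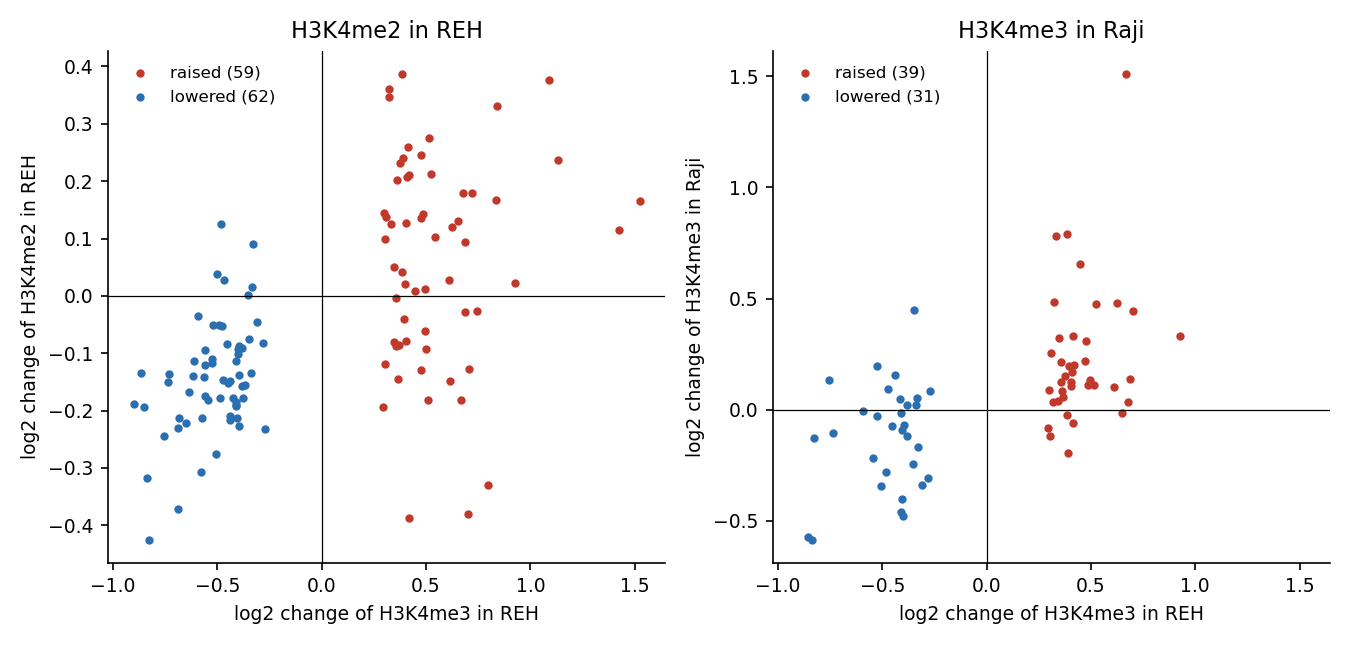
Changed H3K4me3 regions of REH, with their log2 change on the x axis against the log2 change of H3K4me2 in REH (left) and of H3K4me3 in Raji (right), red for raised and blue for lowered. On the left 56 of 62 lowered regions lie below 0, and on the right 33 of 39 raised regions lie above 0.

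Not 1 of the 11799 regions was present in every treated and absent from every untreated library, or the reverse. Untreated replicate 1 alone held 11809 peaks and bryostatin replicate 2 held 10575, which left little room for such regions. This count therefore cannot show that no region was gained or lost. With equal numbers of peaks per library 38 regions were gained and 34 lost. A peak in all 3 treated libraries and 1 untreated one was found at 23 regions, and the reverse at 12. The lowest total signal of a called peak differed between libraries from 77862 to 626594, so a missing peak is not an absent mark.

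Motifs were searched on both strands in the 300 bases around the strongest stretch of each region. The AP-1 letters TGANTCA matched in 2 of 59 raised (3.39%), 4 of 62 lowered (6.45%) and 1.93% of all tested regions. In the same order, the CRE letters TGACGTCA matched in 0 (0%), 0 (0%) and 1.69%. ETS (CCGGAAGT) matched in 1 (1.69%), 2 (3.23%) and 5.32%, and PU.1 (GAGGAAGT) in 0 (0%), 3 (4.84%) and 1.96%. RUNX (TGTGGT) matched in 4 (6.78%), 5 (8.06%) and 7.27%, and the E-box CACGTG in 2 (3.39%), 4 (6.45%) and 6.95%. EGR (GCGNGGGCG) matched in 10 (16.9%), 10 (16.1%) and 17.4%, and the NF-kB site in 8 (13.6%), 16 (25.8%) and 17.5%. A match is only the presence of these letters. In the printed promoters, RUNX letters were found on either strand 2 times in IGLL1 and not in KCNJ2, FOS, CD22 or DNTT, PU.1 letters 1 time in KCNJ2, and the NF-kB site in IGLL1 only. Over RefSeq promoters at tested regions these motifs matched in 8.35%, 2.58% and 14.2%.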

How the data were processed

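REH libraries of H3K4me3 (3 untreated, 3 bryostatin), with H3K4me2 and H3K27me3 of REH and H3K4me3 of Raji and NALM6 beside them, were analysed from the deposited peak files. The authors trimmed reads with Trim Galore, aligned them to hg38 with Bowtie2, scaled coverage to RPKM and ran SEACR on each library alone. The deposited signal of a peak is the sum of that coverage over its bases, or its maximum. Depth was read from RPKM steps of 10 bp bins. Peaks were merged at 1 bp overlap, and log2 total signal, centred per library, was compared with limma 3.58.1 (eBayes with trend, R 4.3.3). Centring removed a difference of 0.06 between group medians. Same-numbered untreated and treated libraries deviated together (correlations 0.18, 0.23 and 0.31, other pairs -0.28 to 0.09), so the numbers were taken to pair the samples and blocked values are given where they matter. The labels do not state a pairing. It was read from the same values that the blocked fits use, so blocked results are an alternative and no independent support. Genes came from GENCODE 44 starts within 1 kb, promoters from RefSeq (GRCh38.p14), and figures were drawn with matplotlib 3.10.9. The fit was tested on simulated data. Named were the 12 largest changes with a start and the 3 largest without one in each direction, list members called, CD22, and regions past the interaction test (a further gene of the rule is not reported here), and any other gene was chosen after its values were seen. The regions and lists were chosen with earlier results of these data known. The alternatives are given with their effect in the closing section.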

Additional observations from a re-analysis of the deposited data

Results flagged for a closer look

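At 5 regions the H3K4me3 response to bryostatin differed between REH and Raji by the limma interaction term. UBASH3B, HLA-E and PHLDA1 had the larger change in Raji. UBASH3B, a phosphatase that dampens antigen receptor signalling, changed by 0.05 in REH and 0.98 in Raji, a difference (REH minus Raji) of -0.93 ± 0.143 (limma adjusted p = 0.0365). Its REH libraries lay between 3.61 and 4.24 times the median region and its untreated Raji libraries between 0.375 and 0.450, so the lines began at different levels. HLA-E, the class I ligand of NKG2A, differed by -0.66 ± 0.103 (0.11 and 0.77, limma adjusted p = 0.0365), and PHLDA1, an early response gene, by -1.08 ± 0.174 (0.23 and 1.31, limma adjusted p = 0.0369). ECE1 differed by -0.73 ± 0.126, with all 3 treated REH libraries (0.624, 0.592 and 0.492) below the untreated ones (0.790, 0.824 and 0.840). RUBCNL differed by 0.66 ± 0.113, with treated REH libraries at 1.00, 0.958 and 1.07 above untreated ones at 0.664, 0.631 and 0.637. The lines also began at different levels at PHLDA1, ECE1 and RUBCNL. At PHLDA1 untreated libraries lay at 0.860 to 0.957 in REH and 0.186 to 0.229 in Raji. Untreated Raji libraries lay at 3.31 to 3.77 at ECE1 and 1.59 to 1.89 at RUBCNL. At HLA-E the untreated libraries of both lines lay between 0.801 and 0.839. With the replicate block 27 regions passed, including these 5, with quantile normalization 5 passed, 4 of them the same, and with the mean coverage none did (227 at an unadjusted p under 0.05 in limma).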

How the results depend on the processing

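All 121 calls kept their direction when each library or replicate pair was left out, without centring, with quantile normalization, with the replicate block, without the trend and with the GC correction, but the counts of raised and lowered regions moved. They were 22 and 22 without centring, 34 and 41 over the upper 0.5 of regions by level, 89 and 113 with the replicate block, 104 and 117 with GC correction and replicate block (chosen after seeing the data), 12 and 8 with the maximum, 0 and 0 with the mean coverage, and 0 and 0 with the called length. Leaving out libraries or replicate pairs gave 21 to 94 raised and 19 to 129 lowered regions. Of 42 named regions, 24 kept their call without each library. Without centring 16 lost it (CLIC5, SHANK1, CD22, DGKD, SPRED2, PTPN6, EGR1, KLF6, MME, RGS19, DNTT, LFNG, ARHGEF4, CBFA2T3, CCM2L and the chr9 region), and 18, 15 and 2 did without both libraries of replicate 1, 2 and 3. The direction reversed with the called length at FHOD1 (-0.0258), BIRC7 (-0.0283), SHANK1 (-0.12), SPRED2 (-0.0307), PTPN6 (-0.00476), LFNG (0.0478) and SEMA6A (0.00165), with the mean coverage at SPRY2 (-0.0700), EGR1 (-0.38) and KLF6 (-0.30), and with the maximum at EGR1 (-0.0794) and KLF6 (-0.0105). The calls of H3K4me2 at changed regions went from 2 to 0 with mean coverage and 10 with the replicate block, and the interaction count from 5 to 0 with mean coverage and 27 with the replicate block. With equal numbers of peaks per library 38 regions were gained and 34 lost, against 0 and 0. Regions missing from a library were not tested, and the lowest total signal of a peak differed between libraries. The cause of these differences was not tested.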
